A study of Mus musculus with 6 samples.

Results

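The coagulation and complement genes of the liver were described in Hepa 1-6, a mouse hepatoma cell line, given Sonic hedgehog (Shh) or its vehicle. The set was chosen by gene symbol and held 38 genes. Of these, 34 had a row in the deposited table of 18169 genes, 20 passed an expression filter and were tested with 12286 genes in all, and 14 had a row with too few reads to test. In these cells the clotting and complement systems were expressed in fragments. *Fgb*, *C3*, *C1s1*, *F3* and *C1ra* were well expressed, whereas most zymogens of the clotting cascade and the terminal complement genes were at or near 0. Between Shh and vehicle, none of the 20 tested genes reached the adjusted threshold of 0.05.

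Both groups were the same cell line with no genetic change, namely 3 libraries labelled vehicle and 3 labelled Shh, each made from poly(A) RNA. How much Shh these cultures received, and for how long, is not stated in the sources used here. The labels do not say whether replicates were grown separately, and the paper's general statement on independent repeats does not name sequencing, so p-values may reflect technical spread. One established line stands for hepatocytes here, without the other cell types of a liver. In bulk RNA, fewer cells of a type and less RNA per cell cannot be told apart. These libraries measure RNA and not protein.

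Hepatocytes make most of the proteins that clot blood and most of the soluble complement proteins, and secrete them into plasma. In clotting, tissue factor or the contact proteins start a chain of serine protease activations that ends in thrombin, which converts fibrinogen to fibrin, while antithrombin, the protein C pathway and plasmin limit the clot. In complement, the classical, lectin and alternative arms converge on C3, and the terminal proteins then assemble the membrane attack complex. Fibrinogen itself is built from equal numbers of 3 chains, which are encoded by *Fga*, *Fgb* and *Fgg*, and in RefSeq order these 3 genes are direct neighbours with no other protein-coding gene between them.

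The 250 bases before the start of each fibrinogen gene are shown because the 3 neighbours differed so widely in level. They are from RefSeq, build GRCm38.p6, at chr3:83007474-83007723 on the plus strand for *Fgg*, chr3:83025903-83026152 on the plus strand for *Fga* and chr3:83049864-83050113 on the minus strand for *Fgb*. Each is written 5′ to 3′ in the direction of its gene, in lower case, with any match to the motifs searched in capitals.
Fgg: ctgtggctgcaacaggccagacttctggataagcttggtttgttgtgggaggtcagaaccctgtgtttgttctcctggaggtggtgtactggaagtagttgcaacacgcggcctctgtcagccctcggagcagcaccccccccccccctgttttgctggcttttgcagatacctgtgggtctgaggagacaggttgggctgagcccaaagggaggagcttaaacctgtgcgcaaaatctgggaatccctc
Fga: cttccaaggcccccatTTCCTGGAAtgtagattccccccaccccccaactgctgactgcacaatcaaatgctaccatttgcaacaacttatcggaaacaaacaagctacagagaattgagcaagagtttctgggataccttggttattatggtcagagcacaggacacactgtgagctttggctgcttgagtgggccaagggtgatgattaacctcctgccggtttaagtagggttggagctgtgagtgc
Fgb: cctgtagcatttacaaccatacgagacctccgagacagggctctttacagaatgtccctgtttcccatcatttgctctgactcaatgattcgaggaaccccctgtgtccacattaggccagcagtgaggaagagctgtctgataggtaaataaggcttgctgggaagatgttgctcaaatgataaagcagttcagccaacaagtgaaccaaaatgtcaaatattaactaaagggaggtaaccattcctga
The capitals in *Fga* mark a match to TTCCNGGAA, the motif of the acute phase factor STAT3, at 234 to 226 bases before the start. *Fgg* and *Fgb*, the least and the most expressed of the family, held none of the 5 motifs searched. The windows also differed in base composition, with a GC content of 56.8% for *Fgg*, 49.2% for *Fga* and 44.8% for *Fgb*.

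The same 5 motifs were searched on both strands of the 250 bases before the start of the 30 genes of the set that had an entry, and of 27025 genes in all. TTCCNGGAA stood before *Fga* and *Pros1*, 2 of 30, against 1.09% of all genes. TTNNGNAAT, a motif of the C/EBP factors, stood before *C1ra*, *C1s1*, *C3*, *C6*, *C9*, *F13b* and *Klkb1*, against 11.7% of all genes. TATAAA, the TATA box, stood before *Klkb1* alone, against 14.3% of all genes. CAAAGTCCA of HNF4 (0.451% of all genes) and GACCACCCA of the GLI factors that Hedgehog signaling activates (0.255%) stood before none of the 30. The genes with a match were found at both ends of the range of expression, from *C3* to *F13b*. A match to these letters is a description of the sequence and not a binding site. *Plg*, *Masp1*, *Cfi*, *Cfb*, *C2*, *Proc*, *Kng1* and *C4b* had no entry.

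Levels were compared between genes on the deposited FPKM scale, which divides by transcript length. Of the fibrinogen chain genes, only *Fgb* was well expressed. *Fgb*, the Bβ chain gene (NCBI gene ID 110135), had the highest FPKM of the set, at 126, 121 and 128 in vehicle replicates 1, 2 and 3 and 123, 117 and 118 in Shh replicates 1, 2 and 3, which ranked it 767th among all rows. *Fga*, the Aα chain gene (NCBI gene ID 14161), was at 0.15, 0.21 and 0.13 FPKM with vehicle and 0.11, 0.09 and 0.08 with Shh, from 10, 11 and 7 counts and then 6, 5 and 4 counts. *Fgg*, the γ chain gene (NCBI gene ID 99571), had 5, 1 and 0 counts with vehicle and 1, 2 and 0 with Shh. Every library thus held 3940 or more counts of *Fgb* and a handful or none of its partner chains. Over the 6 libraries the mean FPKM of *Fgb* was 952 times that of *Fga*, with an exact Poisson 95% interval of 707 to 1315 from 43 *Fga* counts, and 2715 times that of *Fgg*, with an interval of 1430 to 5937 from 9 counts. Of these, 5 were in vehicle replicate 1, without which the ratio to *Fgg* was 5060, a comparison chosen after the data had been seen. These intervals cover counting error only. *F13b*, the carrier subunit of the enzyme that crosslinks fibrin, had 1 count in a single library, Shh replicate 2.

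**Figure D1:**
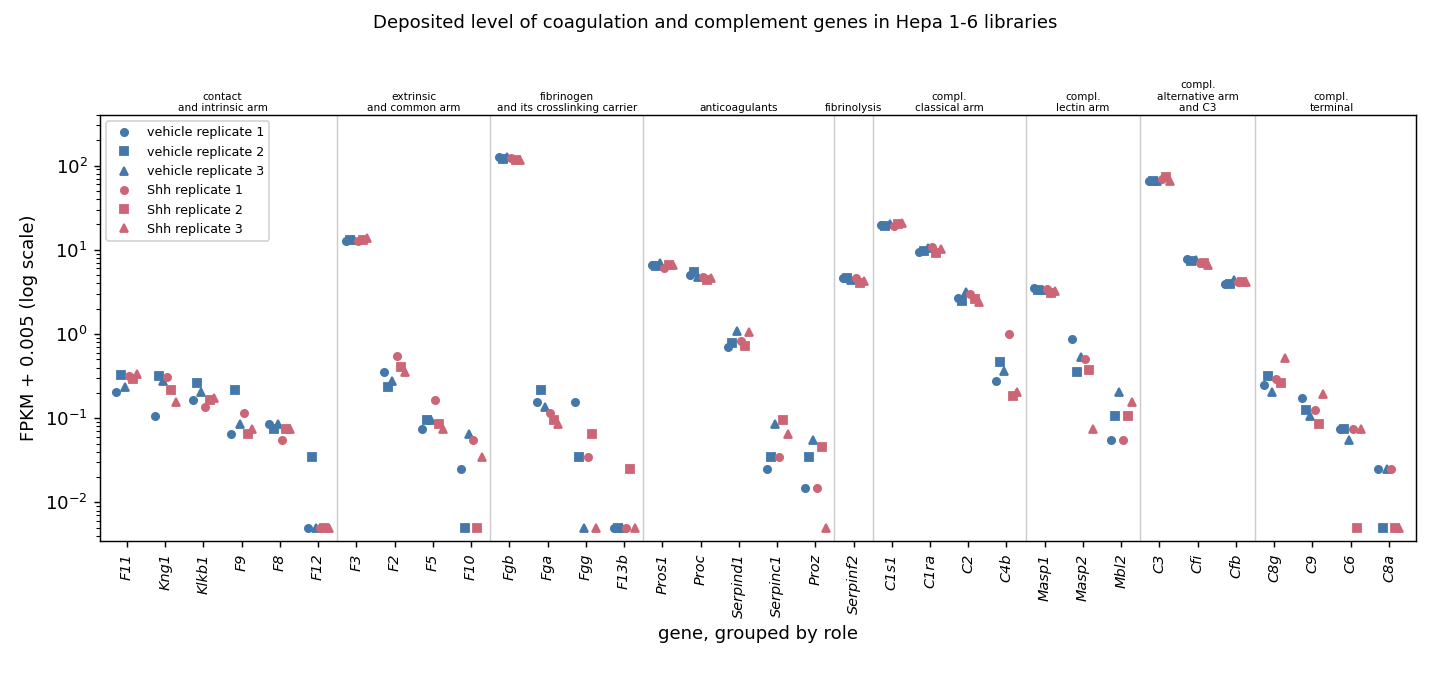
Deposited FPKM plus 0.005 (vertical axis, log scale) of the 34 genes with a row, grouped by role (horizontal axis), 1 marker per library. *Fgb* stood above 117 FPKM in every library while *Fga* and *Fgg* lay at or below 0.21, and values on the bottom line are listed at 0.

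In the extrinsic and common arm of clotting, the initiator was well expressed and its partners were low or not detected. *F3*, tissue factor, the membrane receptor that starts clotting when exposed to blood, was at 12.9, 12.98 and 13.2 FPKM with vehicle and 12.8, 13.1 and 13.7 with Shh. *F7*, the protease that tissue factor binds, had no row and counts as not detected. *F10*, the protease of the prothrombinase complex, had 0 to 2.98 counts per library, and *F2*, prothrombin, averaged 0.283 FPKM with vehicle and 0.433 with Shh. *F5*, the cofactor in that complex, averaged 0.0833 and 0.103 FPKM. Tissue factor mRNA was thus more than 10 FPKM in every library while no other gene of this arm reached 1.

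The contact and intrinsic arm was low throughout. *F11*, a protease activated by thrombin and by the contact pathway, was the highest, at 0.2 to 0.33 FPKM and 10 to 16 counts per library. Its neighbour *Klkb1*, plasma prekallikrein, had 13.81 to 27.12 counts, and *F8*, the cofactor deficient in hemophilia A, 9.24 to 14.14 counts. *Kng1*, the bradykinin precursor kininogen, reached 11.82 counts at most, *F9*, the protease deficient in hemophilia B, 8 counts, and *F12*, the Hageman factor that starts contact activation, had 1 count in vehicle replicate 2 and none elsewhere. These last 3 did not pass the filter.

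Among the anticoagulants, protein C and protein S were expressed and antithrombin was near 0. *Pros1*, protein S, the cofactor of activated protein C, was at 6.65, 6.47 and 7.02 FPKM with vehicle and 6.14, 6.65 and 6.68 with Shh. *Proc*, protein C, which in its active form degrades factors V and VIII, was at 5.02, 5.47 and 4.79 FPKM with vehicle and 4.75, 4.35 and 4.61 with Shh. *Serpind1*, heparin cofactor II, an inhibitor of thrombin, was lower, at 0.69 to 1.08 FPKM. *Serpinc1*, antithrombin, the main plasma inhibitor of thrombin, had 1 to 3 counts per library, and *Proz*, protein Z, the cofactor of a factor Xa inhibitor, 0 to 3. In fibrinolysis the mRNA of the inhibitor was found without that of its target. *Serpinf2*, the plasmin inhibitor α2-antiplasmin, was at 4.58, 4.63 and 4.38 FPKM with vehicle and 4.62, 4.05 and 4.21 with Shh. *Plg*, plasminogen, and *Cpb2*, the carboxypeptidase that slows fibrinolysis, had no row.

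Complement was expressed at C3 and at most of the proteases that act around it, and was near 0 in the terminal pathway. *C3*, the protein on which all arms converge, was the second highest gene of the set, at 64.8, 66.3 and 66.2 FPKM with vehicle and 68.9, 73.6 and 65.2 with Shh, ranking 1428th of all rows. Of the classical arm, the adjacent protease genes *C1s1* and *C1ra* were at 19.8, 19.0 and 20.5 and at 9.32, 9.78 and 10.4 FPKM with vehicle, and at 19.0, 20.0 and 20.7 and at 10.7, 9.21 and 10.2 with Shh. *C2*, the protease of the classical C3 convertase, was at 2.64, 2.47 and 3.18 FPKM with vehicle and 2.96, 2.57 and 2.41 with Shh. *C4b*, the other part of that convertase, averaged 0.363 FPKM with vehicle and 0.457 with Shh. The first protease genes of this arm were thus well above its convertase genes.

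Of the lectin arm, *Masp1*, a protease bound to mannose-binding lectins, was at 3.54, 3.35 and 3.30 FPKM with vehicle and 3.39, 3.07 and 3.22 with Shh. *Masp2*, the protease that cleaves C4 and C2, averaged 0.583 and 0.313, and *Mbl2*, a mannose-binding lectin, had 1 to 4 counts. Of the alternative arm, *Cfb*, factor B, the protease of the alternative convertase and a direct neighbour of *C2*, was at 3.93, 3.94 and 4.36 FPKM with vehicle and 4.16, 4.10 and 4.16 with Shh. *Cfi*, factor I, which inactivates C3b and C4b, was at 7.80, 7.37 and 7.56 FPKM with vehicle and 6.90, 6.92 and 6.58 with Shh. None of the terminal pathway genes of the set passed the filter. *C6* had 0 to 4.27 counts per library, *C8g* 3 to 8, *C9* 3 to 8 and *C8a* 0 or 1, while *C8b* had no row.

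The order of the 12 highest genes by mean FPKM was *Fgb*, *C3*, *C1s1*, *F3*, *C1ra*, *Cfi*, *Pros1*, *Proc*, *Serpinf2*, *Cfb*, *Masp1* and *C2*. In the 3 vehicle libraries the ranges of neighbours in this order did not overlap at any step. In the 3 Shh libraries the ranges of *Cfi* and *Pros1*, of *Proc* and *Serpinf2*, and of *Serpinf2* and *Cfb* overlapped, so those neighbours did not differ beyond their spread. The 8 other tested genes averaged under 1 FPKM in both groups. The 14 genes with a row that did not pass the filter had 0 to 11.82 counts per library. At this depth, 20253781 to 20335463 counts per library, a gene with no counts cannot be told from one with a few copies among many cells.

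The labelled cell type, mouse hepatocyte, was checked on 12 hepatocyte markers. *Alb* was at 484 to 506 FPKM, the fetal marker *Afp* at 186 to 196, and *Trf* and *Rbp4* were also high, whereas *Apoa1* averaged 3.41 FPKM with vehicle, and *Ttr* (4 to 12 counts), *Ahsg* (2 to 8), *Serpina1a* (0 to 3.06) and *Apoc3* (0 or 1) were near 0. The near absence of several plasma protein mRNAs thus was not limited to clotting and complement genes. Of the regulators of liver transcription, *Hnf4a* was at 44.3 to 47.6 FPKM and *Cebpa* at 21.7 to 25.1, and *Ppara* was low, at 0.19 to 0.29. No pair of libraries was a copy, since the chi-square per degree of freedom was 1.71 to 2.30 between vehicle libraries and 4.07 to 9.11 between Shh libraries.

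With Shh, the well expressed genes changed little. For this comparison counts were normalized by TMM to CPM, the counts of a gene scaled to a common library size, and a log2 fold change is Shh minus vehicle. By edgeR's quasi-likelihood test, 0 of the 20 genes passed the adjusted threshold of 0.05 (adjusted p = 0.469 to 0.995), where 0% of the 12286 genes tested passed. DESeq2 also called 0 of the 20 and 0 of all genes tested. At an unadjusted p under 0.05, edgeR gave 0 genes of the set as higher, against 4.83% of all genes tested, and 1 as lower, *Cfi*, against 5.56%. DESeq2 gave 0 at that unadjusted p, against 6.63% of all genes tested in either direction. The set thus gave no more such genes than the share of all genes tested. Of the 20 genes, 14 had a log2 fold change below 0 and 6 above. The median was -0.049, against 0.0028 over all genes tested, of which 48.8% lay below 0. It turned to 0.0078 without vehicle replicate 3, and was -0.093 without Shh replicate 1 and -0.089 without vehicle replicate 2.

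The 12 genes that averaged over 100 counts per library were the ones measured precisely. Of them, 10 lay below 0, with a median of -0.085, where 49.2% of the 9864 genes over 100 counts lay below 0 with a median of 0.0018. The largest change in size was 0.18. The standard errors were 0.040 to 0.12, and the 95% intervals of these 12 genes lay between -0.38 and 0.18. With an offset for the trend of each library with transcript length, 10 of the 12 lay below 0, with a median of -0.068. They were not all the same genes, since *C3* turned to -0.044 and *F3* to 0.024. Over all 12178 genes tested with the offset the median was -0.0030, and the share of genes over 100 counts below 0 was not computed. The 8 tested genes under 100 counts had standard errors of 0.24 to 0.52, so only large changes could have been seen in them.

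**Figure D2:**
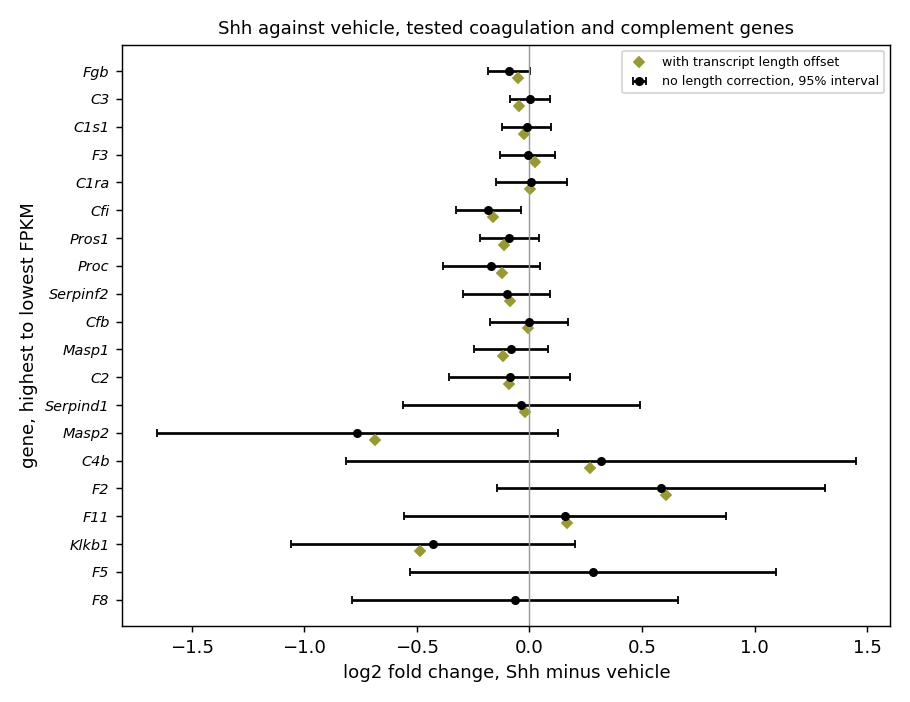
Log2 fold change, Shh minus vehicle (horizontal axis), of the 20 tested genes from highest to lowest FPKM (vertical axis). Black points and bars are edgeR estimates with 95% intervals, and diamonds the estimates with a transcript length offset (18 genes with a length); the intervals of 19 genes cross 0 and that of *Cfi* ends at -0.036.

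*Cfi*, the protease that inactivates C3b and C4b, had the smallest p of the set in edgeR. Its CPM values were 16.0, 15.1 and 15.4 with vehicle (replicates 1, 2 and 3) and 14.1, 13.7 and 13.2 with Shh (replicates 1, 2 and 3), resting on 270 to 321 counts. Every Shh library lay below every vehicle library. The means were 15.5 ± 0.473 CPM (SD, n = 3) and 13.7 ± 0.405 CPM (SD, n = 3). The log2 fold change was -0.18 (standard error, SE, 0.067, 95% interval -0.33 to -0.036) and its adjusted p was 0.469 from edgeR, so it did not pass. It was -0.16 with the length offset, and the unadjusted p of 0.0186 from edgeR was 0.107 from DESeq2, in which *Fgb* had the smallest p of the set (unadjusted p = 0.0622).

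*Fgb* followed among the precisely measured genes. It was at 211, 203 and 213 CPM with vehicle and 204, 190 and 194 CPM with Shh, so Shh replicate 1 lay within the vehicle range and the other two Shh libraries below it. The means were 209 ± 5.49 CPM (SD, n = 3) and 196 ± 7.41 CPM (SD, n = 3), which is -0.091 in log2 fold change (SE 0.042, adjusted p = 0.479 from edgeR). With the length offset it was -0.050. *Fga*, untested for its few counts, had fewer in each Shh library (4 to 6) than in any vehicle library (7 to 11). *Fgg*, also untested, overlapped, with 5, 1 and 0 counts with vehicle and 1, 2 and 0 with Shh. The share of untested genes that separated was not computed, so *Fga* stands without a background.

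The 3 tested genes with every Shh library below every vehicle library were *Cfi*, *Pros1* and *Masp2*, and no gene of the set had the reverse. Over all genes tested, 8.67% were separated downward and 6.79% upward. With 3 libraries a side, the smallest p of an exact permutation test is 0.10. *Pros1* was at 21.9, 21.3 and 23.0 CPM with vehicle and 20.0, 21.1 and 21.1 CPM with Shh, or -0.088 in log2 fold change (SE 0.061, adjusted p = 0.602 from edgeR), and its groups overlapped in the deposited FPKM. *Masp2* had 15.32, 10.52 and 11.37 counts with vehicle and 10.31, 8.33 and 4.33 with Shh. Its log2 fold change of -0.76 (SE 0.41, adjusted p = 0.513 by edgeR) was the lowest of the set, and its groups overlapped in FPKM too, at 0.35 to 0.87 with vehicle and 0.07 to 0.50 with Shh. Its FPKM did not follow its counts, with 10.52 counts at 0.35 in vehicle replicate 2 and 10.31 at 0.50 in Shh replicate 1. The length divided by thus differed between libraries, and which transcripts of *Masp2* were counted was not tested. In the deposited FPKM the separated genes among those tested were *Cfi* and *Proc*, and after the length offset *Cfi*, *Masp2*, *Pros1* and *Proc*, each of them lower with Shh. The share of all genes tested that separated on these scales was not computed, so these genes stand without a background. *Proc* was at 7.93, 8.52 and 7.42 CPM with vehicle and 7.42, 6.65 and 7.16 CPM with Shh, with vehicle replicate 3 and Shh replicate 1 level, a log2 fold change of -0.17 (standard error 0.099).

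**Figure D3:**
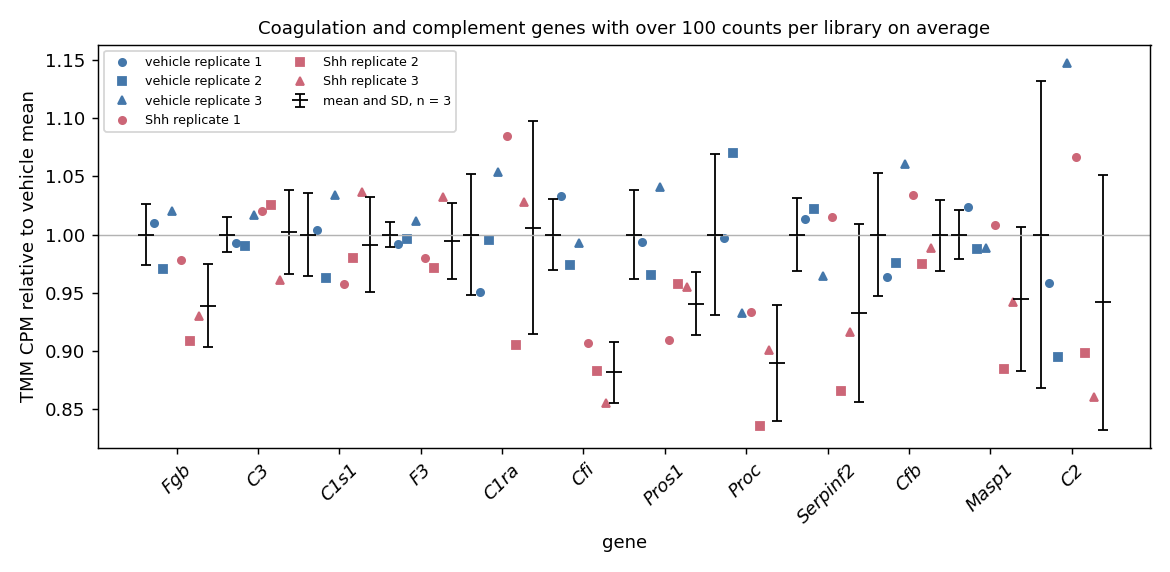
TMM-normalized CPM relative to the vehicle mean (vertical axis) of the 12 genes over 100 counts per library (horizontal axis), 1 marker per library, with the mean and SD of the 3 libraries of a group in black. The groups are apart for *Cfi* and *Pros1* and overlap for the other genes plotted.

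The other well expressed genes did not separate the groups. *C3* was at 302, 301 and 309 CPM with vehicle and 310, 312 and 292 CPM with Shh, a log2 fold change of 0.0031 (standard error 0.040), and the lowest and the highest value were both Shh libraries. *C1s1* was at 57.3, 55.0 and 59.1 CPM with vehicle and 54.7, 56.0 and 59.2 CPM with Shh, and its neighbour *C1ra* at 25.6, 26.8 and 28.4 and at 29.2, 24.4 and 27.7 CPM. Their log2 fold changes were -0.013 and 0.0077. *F3* was at 23.9, 24.0 and 24.3 CPM with vehicle and 23.6, 23.4 and 24.8 CPM with Shh, a change of -0.0080 with a 95% interval of -0.13 to 0.12. For each of these 4 genes the sign turned when some 1 library was left out, and that of *C3* and *F3* also with the length offset (-0.044 and 0.024). *Cfb* was at 10.3, 10.5 and 11.4 CPM with vehicle and 11.1, 10.5 and 10.6 CPM with Shh, a change of -0.0015 that was 0.0027 under the filter of at least 5 CPM.

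Of the remaining precisely measured genes, *Serpinf2* was at 9.93, 10.0 and 9.45 CPM with vehicle and 9.95, 8.48 and 8.98 CPM with Shh, a log2 fold change of -0.10. *Masp1* was at 13.2, 12.8 and 12.8 CPM with vehicle and 13.02, 11.4 and 12.2 CPM with Shh, a change of -0.082. *C2* was at 6.94, 6.48 and 8.31 CPM with vehicle and 7.72, 6.50 and 6.23 CPM with Shh, a change of -0.087. In each of these 3 genes Shh replicate 1 lay within the vehicle range, as did Shh replicate 2 for *C2*, and the other Shh libraries lay below it.

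Among the low genes, *F2* had the highest log2 fold change of the set. It had 14.09, 9.14 and 11 counts with vehicle and 22, 16.01 and 14 with Shh, so Shh replicate 3 and vehicle replicate 1 met. The means were 0.564 ± 0.126 CPM (SD, n = 3) and 0.849 ± 0.212 CPM (SD, n = 3), a change of 0.58 (SE 0.33, adjusted p = 0.534 by edgeR). *Klkb1* was at -0.43, *F5* at 0.28, *F11* at 0.16, *F8* at -0.063 and *Serpind1* at -0.036, each with a 95% interval that crossed 0.

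*C4b* varied more between libraries than any other tested gene of the set, and its standard error of 0.52 was the highest. It had 29.29, 50.28 and 39.09 counts with vehicle, and 107.07, 19.9 and 21.94 in Shh replicates 1, 2 and 3. The Shh group thus held both the highest library and the lowest ones. The log2 fold change was 0.32 (adjusted p = 0.846 from edgeR) and became -0.93 without Shh replicate 1 (adjusted p = 0.0966 from edgeR). It was 0.086 with the replicate block and 0.035 with the block and the length offset. *C4b* has a near copy, *C4a*, to which the authors' counting may have split reads, and *C4a* had 16.06 to 20.1 counts with Shh and 8.71 to 18.72 with vehicle, with no high value in Shh replicate 1.

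Several complement and collagen genes outside the set, named after their values had been seen, were also highest in Shh replicate 1. *Serping1*, the C1 inhibitor, had 28, 59 and 58 counts with vehicle and 103, 26 and 18 with Shh. *Cfd*, factor D, had 135, 152 and 169 and then 312, 95 and 83. *C7* of the terminal pathway had 13, 15.82 and 10.85 and then 42, 10 and 8.24. In each, Shh replicate 1 was the highest library and the other two Shh libraries lay below all vehicle libraries. The C1q chain genes *C1qa* (42 counts), *C1qb* (36) and *C1qc* (28) were likewise highest in Shh replicate 1, against at most 26, 11 and 17 elsewhere, as were *Col1a1* (440) and *Col3a1* (320), against at most 318 and 161. Of the tested genes of the set, 4 of 20 were highest in this library, namely *C1ra*, *C4b*, *F2* and *F5*, and of 20 other complement genes tested 6 were, against 15.1% of all genes tested. *C3* did not follow, at 310 CPM in that library.

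**Figure D4:**
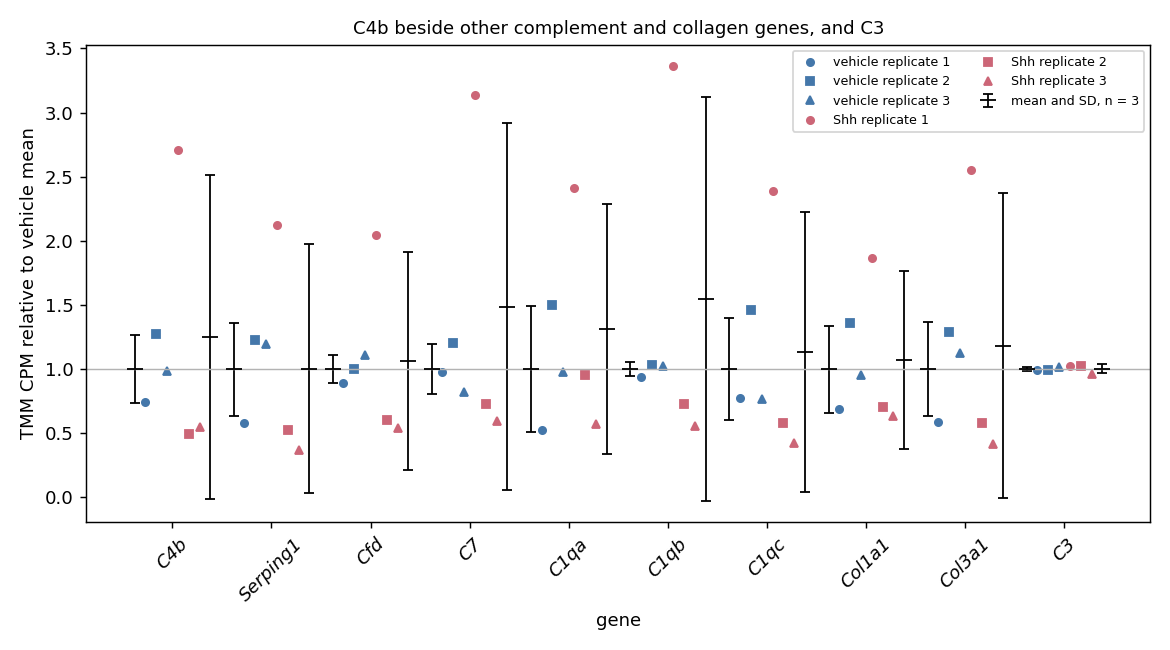
TMM-normalized CPM relative to the vehicle mean (vertical axis) of *C4b*, other complement genes, 2 collagen genes and *C3* (horizontal axis), 1 marker per library, with the mean and SD of the 3 libraries of a group in black. Shh replicate 1 is the highest library for every gene plotted but *C3*.

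Markers of other liver cells were read in the same libraries. Those of stellate cells, which include *Col1a1* and *Col3a1*, summed to 14.6, 26.2 and 20.9 CPM with vehicle and 42.2, 13.4 and 12.6 CPM with Shh, and 4 of the 6 were highest in Shh replicate 1. Endothelial markers summed to 2.50, 3.49 and 2.18 and then 4.60, 2.65 and 2.11 CPM, with 4 of 6 highest there. Macrophage markers, which include *C1qa*, summed to 52.0, 51.4 and 51.0 and then 51.9, 44.9 and 47.4 CPM, with 4 of the 5 that had a row highest there and *Clec4f*, a Kupffer cell marker, without a row. Megakaryocyte and platelet markers did not share this order, at 95.2, 94.8 and 97.1 and then 98.4, 92.4 and 101 CPM, with 0 of 5 highest there. The hepatocyte markers, *Fgb* among them, summed to 3044, 2993 and 2983 and then 2971, 2751 and 2850 CPM. No marker with a row was at 0 in every library. The part of other cells in the values of *C4b* was not tested.

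The genes around these pathways gave no call either. Of 25 other coagulation and fibrinolysis genes, 13 were tested, with a median of -0.065, and 0 passed in edgeR. At an unadjusted p under 0.05 in edgeR, 5.56% of all genes tested were lower with Shh, and so were 2 of these 13. These were *S100a10* (-0.15, or -0.039 with the length offset), the partner of *Anxa2* in binding plasminogen at the cell surface, and *Plaur*, the urokinase receptor (-0.096, or -0.043 with the offset). *Anxa2* itself was at -0.087 (-0.026 with the offset) and *Procr*, the receptor of protein C, at -0.10 (-0.049 with the offset). Levels differed widely within this list. *Procr* averaged 115 FPKM with vehicle against 5.09 for *Proc*, and *Plat*, tissue plasminogen activator, averaged 65.3 where *Plg* had no row. In contrast, *Thbd*, thrombomodulin, which thrombin needs to activate protein C, had 2 to 21 counts per library, *F2r*, a thrombin receptor, 2 to 8, and *Plau*, urokinase, 0 to 2.99. *Habp2*, a hyaluronan-binding protease that can activate factor VII, averaged 131 FPKM.

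All 10 genes of vitamin K carboxylation and of factor V and VIII transport and processing were tested, and 0 passed, with a median of -0.0053. At an unadjusted p under 0.05 in edgeR there were 0, against 10.4% of all genes tested. *Ggcx*, the γ-carboxylase that clotting factors need, averaged 8.26 FPKM with vehicle, *Vkorc1*, the target of warfarin, 49.2, and *Lman1* and *Mcfd2*, the cargo receptor of factors V and VIII, 80.9 and 31.8. This machinery was thus expressed where most of its clotting clients were near 0. Their log2 fold changes were -0.017, -0.12, 0.018 and -0.028, and the protease gene *Furin* was at 0.10. With the length offset the values of these 5 genes were -0.053, -0.013, 0.020, 0.00063 and 0.055 in the same order, and *Mcfd2* thus turned.

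Of 35 other complement genes, 20 were tested and 0 passed, with a median of 0.033. Of these 20, 1 had an unadjusted p under 0.05 in edgeR and was lower with Shh, against 5.56% of all genes tested. It was *C1qbp*, a mitochondrial protein that binds C1q (-0.092, or -0.016 with the length offset). *Clu*, clusterin, an inhibitor of the membrane attack complex, averaged 1049 FPKM with vehicle and lay at -0.081, or -0.043 with the offset. *Hc*, which encodes C5, had 31 to 37 counts per library and lay at 0.032, which turned to -0.028 with the offset. Of 23 regulators of liver and acute phase transcription, all were tested and 0 passed, with a median of 0.0086. The pioneer factor gene *Foxa1* alone had an unadjusted p under 0.05 in edgeR and was higher with Shh (0.22, or 0.20 with the length offset). Over all genes tested, 4.83% were higher at that p. *Stat3* was at -0.023, *Hnf4a* at 0.037 and *Cebpb* at 0.022, and with the offset they were at -0.070, -0.0063 and 0.077, so that the sign of *Hnf4a* turned.

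Of 4 Hedgehog readout genes, 2 were tested and 0 passed, with a median of 0.033. *Gli1*, the usual target of the pathway, had 50, 43 and 48 counts with vehicle and 47, 56 and 44.06 with Shh, and its groups overlapped (log2 fold change 0.036, 95% interval -0.36 to 0.43). *Ptch1*, the receptor and a target, was at 35.6, 31.4 and 36.4 CPM with vehicle and 33.8, 36.9 and 34.8 CPM with Shh (0.030, 95% interval -0.11 to 0.17). With the length offset *Gli1* was at 0.0035 and *Ptch1* turned to -0.045. *Hhip*, a further target, had 0 to 3 counts. In these libraries neither target gene that could be tested differed beyond the spread between replicates.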

How the data were processed

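The authors sequenced poly(A) RNA of Hepa 1-6 cells as single-end reads (3 vehicle and 3 Shh libraries). Although the series' design text mentions liver exosomes, sample labels and paper give a cell line, and these were followed. Estimated counts per gene were deposited, 36.4% of those above 0 being fractional, beside FPKM values that the authors scaled by length and library total. The 6 further per-sample columns were left unused. Submitters' processing notes list Bowtie2. No source used here gives the counter, strand use, genome build or annotation, so near copies (*C1ra* and *C1rb*, *C1s1* and *C1s2*, *C4b* and *C4a*, *Kng1* and *Kng2*) and overlapping genes may share reads. Of the 38 genes, 11 had fractional counts.

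Estimated counts were rounded, filtered (filterByExpr, minimum count 10, minimum total 15), normalized by TMM and tested with edgeR 4.0.16 in R 4.3.3 (limma 3.58.1), group as the only term, with Benjamini-Hochberg adjustment over 12286 genes and a threshold of 0.05. FPKM served to compare genes and to recover transcript lengths where the mean was at least 0.1. The fit was repeated with DESeq2 1.42.0, no filter, upper-quartile factors, a stricter filter (5 CPM or more in 3 or more libraries), a replicate block, a length offset (spline, 5 degrees of freedom), block and offset together, and each library left out; the plans for tables without counts were not needed. The edgeR step was tested on simulated counts. Groups came from the sample titles. Shh and vehicle libraries were similar in depth, and relative counting error was smallest for genes with many counts.

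The 38 genes and the lists were chosen with earlier results of these data known. Every gene of the set was named. Values in each library were given for the 3 smallest p, the highest and lowest fold change, the 12 highest by FPKM and every gene whose groups did not overlap, and from other lists for up to 4 genes with the smallest p and those with a role in the text. A few list genes are not reported here.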

Additional observations from a re-analysis of the deposited data

How the results depend on the processing

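The 0 genes of the set called stayed 0 under each alternative. Over all genes tested, the 0 called became 1 without a filter, 1 with the length offset, 3 with the replicate block and length offset, and 0 to 195 on leaving out a library, the 195 without Shh replicate 1. Genes of the set at an unadjusted p under 0.05 were 1 of 20 in edgeR (*Cfi*). DESeq2 gave 0 of 20, against 6.63% of all genes tested. Without a filter they were 2 of 34, against 8.2% of all genes tested. With the replicate block they were 2 of 20, against 11.1% (*Cfi* and *Fgb* each time). On leaving out a library they were 0 to 4. They were 0 of 20 without vehicle replicate 1, against 4.89% of all genes tested, and 0 of 21 without Shh replicate 3, against 9.33%. They were 4 of 20 without Shh replicate 1 (*C4b*, *Fgb*, *Cfi* and *Masp2*, named after their values were seen), where 21.1% of all genes tested were at that p, against 10.4% with all libraries. The median of the set, -0.049, was -0.093 to 0.0078 on leaving out a library, with the lowest value without Shh replicate 1, -0.089 without vehicle replicate 2 and the highest without vehicle replicate 3. Libraries of the same number did not deviate together (correlations -0.015, -0.077 and 0.14), and with the replicate block 0 genes were called. The causes were not tested.

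No gene of the set passed in any fit, and the signs of some turned. With the length offset *C3* was at -0.044 and *F3* at 0.024, with the replicate block too at -0.044 and 0.024, and *Cfb* was at 0.0027 with at least 5 CPM. On leaving out a library the ranges were -0.050 to 0.078 for *C1ra*, -0.046 to 0.013 for *C1s1*, -0.19 to 0.025 for *C2*, -0.014 to 0.032 for *C3*, -0.93 to 0.70 for *C4b*, -0.028 to 0.045 for *Cfb*, -0.036 to 0.0083 for *F3*, -0.17 to 0.48 for *F5*, -0.18 to 0.097 for *F8* and -0.19 to 0.17 for *Serpind1*. *Cfi* kept its sign throughout, at -0.20 to -0.16. The 8 tested genes of the set under 100 counts per library had standard errors of 0.24 to 0.52.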
